A study of Rattus norvegicus with 12 samples.

Results

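The comparison described here sets the hearts of rats kept with either of 2 forms of physical activity, pooled, against those of rats kept in a standard cage. It used all 12 arrays of the series: 8 activity arrays, 4 of them labelled as voluntary exercise and 4 as short activity sessions, and 4 sedentary arrays. Of the 31042 probe sets that are no controls, the 18626 whose mean over the 12 arrays lay in the upper 60% were tested. They stood for 10244 of the 14217 genes that have a symbol of their own on the array, each gene being read from its brightest tested probe set.

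All samples were left ventricle of female Sprague-Dawley rats (Charles River), 16 months old, hybridized to Affymetrix rat arrays, which read each transcript through a set of short oligonucleotides, the probe set. EX rats had access to voluntary exercise throughout life. PA rats were given 1 h of activity in a large box, 2 times a week. SED rats had a standard cage and no more. According to the design text 12 rats of each group were used and 4 rats were pooled per chip, which would need 3 chips a group where 4 are listed, so which rats stand behind which array is not settled. All p-values therefore measure the spread between these pooled arrays, and precision is bounded by how few arrays there are. If arrays of a group share rats, they are not independent, and the standard errors and p-values may be too small. Whether they do was not tested. In whole ventricle, fewer cells of a type and less RNA per cell cannot be told apart.

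The heart adapts to repeated exercise by a moderate growth of its muscle cells, by adjusting the capacity of mitochondria to burn fatty acids, and by changes in the ion channels and kinase scaffolds that set its rhythm. Growth signals such as IGF-1 and PI3K-Akt act on transcription and on the translation of messenger RNA, while members of the TGF-beta family and stress kinases steer matrix deposition and pathological growth. Resident and infiltrating immune cells and their interferon-induced and complement genes are a further part of the ageing heart.

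The array medians were alike (5.64 to 5.72, log2), but the interquartile range was 3.58, 3.84, 3.86 and 3.73 in SED 1 to SED 4 against 3.89 to 4.04 on the activity arrays. SED 1 stood apart: its mean correlation with the other arrays was 0.964 against 0.987 to 0.989, and its Gapdh control had the largest 3' minus 5' difference, 1.56 against 0.96 to 1.35. The actin control set it apart less, at 1.70 against 1.37 to 1.67, with SED 3 next. The bioB transcript, a bacterial RNA added at hybridization, read 11.03 in SED 1 and 11.19 in SED 4 against 10.34 to 10.75 elsewhere. SED 3 stood highest for immune and blood cell genes, as given below with those genes. All 11 ventricular muscle genes on the array passed the filter, from 12.32 to 13.19. Of them 7 had a lower mean with activity and 4 a higher one (median difference -0.011, -0.033 without SED 1). The 10 atrial markers on the array passed it too, from 6.20 to 11.95, so passing the filter does not tell ventricle from atrium.

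Below, a level is a log2 value as deposited, and a difference is the mean of the EX and PA means minus the SED mean, in log2 units, with the standard error of the limma model. Because EX and PA were compared with the same 4 SED arrays, their separate differences share those arrays and are given side by side only. No probe set passed an adjusted limma p of 0.05 (0 of 18626, percent called 0). The smallest adjusted p was 0.0515, for a probe set with no gene symbol, whose 8 activity arrays stood between 5.66 and 6.16 and whose SED arrays stood at 5.01, 4.87, 5.19 and 4.97. At an unadjusted limma p under 0.05 there were 3583 probe sets (19.2%), 2224 higher and 1359 lower with activity. Between EX and PA, a comparison of fewer arrays, 534 probe sets (2.87%) had an unadjusted limma p under 0.05, the smallest adjusted p was 0.553 and 0 were called. Leaving SED 1 out gave 2758 probe sets at an unadjusted p under 0.05 (14.8%) and 2 past the adjusted threshold (0.0107%), one of Tc2n and one of N4bp1, both higher with activity.

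Activity and SED arrays were fully apart, without overlap, in 271 genes (2.65% of those tested), 116 of them higher with activity (1.13%) and 155 lower (1.51%). Of these 271 genes, 7 (2.58%) had an unadjusted limma p under 0.05 between EX and PA, beside 2.87% of all probe sets tested. The first share is over genes and the second over probe sets. The 271 genes were also picked on the same activity values, so whether EX and PA agree was not tested by these shares. The median difference was 0.45 over the 116 genes and -0.39 over the 155 genes, and the extremes were 1.38 and -1.04. Without SED 1 those medians were 0.36 and -0.35, and 38 of the 271 genes (30 higher, 8 lower) then had a difference more than 1.5 times smaller. SED 1 was, in 168 of the 271 genes, the SED array farthest from the activity arrays. With SED 1 left out, non-overlapping genes numbered 190 higher (1.85%) and 191 lower (1.86%). After quantile normalization there were 257 non-overlapping genes, 58 higher and 199 lower, and only 189 of the 271 genes were among them. After cyclic loess there were 228, 69 higher and 159 lower, so the split by direction depends on the scaling.

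Direction also went with brightness. The median difference was -0.16 in the fourth of 10 equal bins of all probe sets by level and 0.13 in the seventh. The non-overlapping genes that were lower with activity were dimmer (median level 5.76, with 95 of 155 below a level of 6) than those that were higher (median 7.69, with 9 of 116 below 6). Over all genes tested the median level was 7.91, and 16.6% lay below 6. Of the 155 lower genes 16 had an activity mean below the filter of 4.94, and of the 116 higher genes 2 had a SED mean below it, so these passed the filter only through the group where they are high. Quantile normalization brought the medians of the bins to between -0.066 and 0.023. Differences of single genes moved both ways under it. That of Mterf1 went from 0.44 to 0.33, that of Dnajc14 from 0.45 to 0.33 and that of Hook2 from -0.54 to -0.49. Those of Nln, from 0.71 to 0.73, and Ripor1, from -0.55 to -0.61, became larger in size. How far this dependence on level enters the difference of a single gene was not tested beyond such rescaling.

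**Figure D1:**
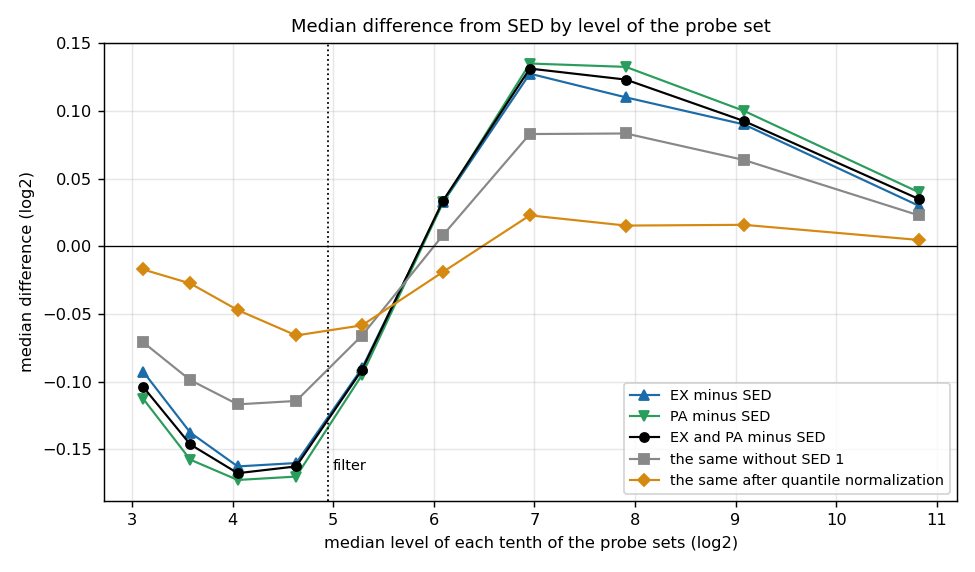
Median log2 difference from SED (vertical axis) in 10 equal bins of all non-control probe sets ordered by their mean log2 level (horizontal axis), for EX, for PA, for both together, for both without SED 1 and for both after quantile normalization; the dotted line marks the filter at 4.94. The EX and PA lines run together, from -0.16 and -0.17 in the fourth bin to 0.13 and 0.14 in the seventh, and the line after quantile normalization stays between -0.066 and 0.023.

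Among the genes that read and package DNA, several stood higher in both activity groups. Taf4b, a subunit of the general transcription factor TFIID, read 7.05 to 7.74 (median 7.45) on the 8 activity arrays and 6.82, 6.86, 6.70 and 6.90 in SED 1 to SED 4. The groups did not overlap, and the difference was 0.59 ± 0.095 (SE), with an adjusted limma p of 0.0681. It was 0.47 for EX and 0.72 for PA, and 0.59 without SED 1. Ing3, a subunit of the NuA4 histone acetyltransferase complex, read 7.41, 7.23, 7.39 and 7.34 in EX 1 to EX 4, 7.10, 7.30, 7.07 and 7.19 in PA 1 to PA 4 and 6.40, 6.59, 6.78 and 6.88 in SED 1 to SED 4. All 8 activity arrays were above all SED arrays, with SED 1 the lowest, and the difference was 0.59 ± 0.10 (SE) (adjusted limma p 0.0681) or 0.50 without SED 1. Polr1h, a subunit of RNA polymerase I, read 7.01 to 7.64 (median 7.42) with activity and 6.92, 6.93, 6.90 and 6.82 in SED, a difference of 0.45 ± 0.091 (SE) without overlap, made up of 0.60 in EX and 0.31 in PA. Zbtb24, a zinc finger protein that takes part in DNA methylation, stood lower: 4.93 to 5.23 (median 5.08) with activity against 5.59, 5.48, 5.39 and 5.72 in SED, a difference of -0.45 ± 0.08 (SE). Its second tested probe set went the other way, by 0.10.

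The 250 bases before the transcript start used in RefSeq's promoter table are shown for 5 leading genes, 3 higher and 2 lower with activity. They are the first by smallest p in each direction with a single promoter entry and not on chromosome 18. This left out Sft2d3 and Taf4b, the higher genes with the smallest p at their brightest probe sets, which lie on chromosome 18. Akap9, Ing3 and Mterf1 all lie on chromosome 4, which follows in part from that choice. Akap9 and Mterf1 are 33709 bases apart there. The transcript start used is the outer end of the annotated gene for Akap9. For the others it lies inside the gene's annotated span, by 84 bases in Mterf1, 4593 in Ing3, 3715 in Zbtb24 and 12152 in Ripor1. Other transcripts of these genes therefore start elsewhere. The sequences are on build GRCr8, written 5' to 3' on the gene's own strand, and capitals mark letters that match a searched motif: the GC box GGGCGG, the CCAAT box CCAAT, the ETS site CCGGAAG, the E-box CACGTG, the TATA box TATAAA and the cAMP response element TGACGTCA, each on both strands.
Ing3 (chr4:51443561-51443810, plus strand, higher with activity): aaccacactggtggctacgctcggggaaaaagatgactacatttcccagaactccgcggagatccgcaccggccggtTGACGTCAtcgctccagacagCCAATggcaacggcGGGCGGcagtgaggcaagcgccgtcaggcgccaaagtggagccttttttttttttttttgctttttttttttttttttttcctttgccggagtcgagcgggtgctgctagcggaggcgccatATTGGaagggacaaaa
Mterf1 (chr4:31180882-31181131, plus strand, higher): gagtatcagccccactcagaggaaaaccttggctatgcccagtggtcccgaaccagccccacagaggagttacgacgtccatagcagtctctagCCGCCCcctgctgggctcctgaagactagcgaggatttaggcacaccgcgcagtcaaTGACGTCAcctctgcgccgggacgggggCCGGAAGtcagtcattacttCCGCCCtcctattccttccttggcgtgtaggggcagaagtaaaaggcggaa
Akap9 (chr4:31147339-31147588, minus strand, higher): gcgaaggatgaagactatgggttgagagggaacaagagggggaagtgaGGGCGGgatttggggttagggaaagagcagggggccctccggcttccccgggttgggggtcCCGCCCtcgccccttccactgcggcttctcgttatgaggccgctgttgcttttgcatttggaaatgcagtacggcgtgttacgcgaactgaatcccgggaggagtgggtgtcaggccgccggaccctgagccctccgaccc
Ripor1 (chr19:50399349-50399598, plus strand, lower): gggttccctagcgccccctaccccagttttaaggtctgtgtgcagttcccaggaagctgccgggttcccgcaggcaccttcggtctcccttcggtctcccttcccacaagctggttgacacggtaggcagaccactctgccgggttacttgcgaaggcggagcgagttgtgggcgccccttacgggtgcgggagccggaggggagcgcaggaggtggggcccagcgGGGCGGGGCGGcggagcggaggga
Zbtb24 (chr20:46529447-46529696, plus strand, lower): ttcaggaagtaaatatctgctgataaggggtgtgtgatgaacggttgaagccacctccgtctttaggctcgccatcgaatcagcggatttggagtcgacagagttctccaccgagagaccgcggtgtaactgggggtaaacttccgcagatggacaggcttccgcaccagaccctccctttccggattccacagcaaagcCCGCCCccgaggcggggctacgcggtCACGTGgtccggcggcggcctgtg

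The whole cAMP response element lay 173 bases before that transcript start in Ing3 and 99 bases before it in Mterf1, and was not in the windows of Akap9, Ripor1 and Zbtb24. Of the 10 genes with the smallest p in each direction, 9 had a promoter in the table each way. The element was in 3 of the 9 higher genes (Taf4b, Ing3 and Mterf1) and 0 of the 9 lower ones, against 1.59% of 33469 promoters and 2.94% of 8559 promoters of tested genes. Over all non-overlapping genes with a promoter it was in 5 of 103 higher ones (4.85%) and 2 of 118 lower ones (1.69%). The ETS letters were in 4 of 9 higher and 0 of 9 lower genes, but in 10.7% and 11.9% of the non-overlapping genes, where tested genes gave 15.5%. GC boxes were in 7 and 6 of 9, against 59.4% of tested genes, CCAAT boxes in 3 and 2 (35.7%), E-boxes in 2 and 2 (8.42%) and TATA boxes in 1 and 1 (6.58%). A match is a description of the letters in this window and not of a factor bound there.

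Functional lists are given by counts and medians beside those of all 10244 genes, of which 6024 had a higher and 4181 a lower mean with activity (58.8% higher), with a median difference of 0.041, 0.023 without SED 1 and -0.017 after quantile normalization. An unadjusted limma p under 0.05 was reached by 9.28% of all genes on the higher side and 6.78% on the lower side, and an adjusted p under 0.1 by 90 (0.879%) and 137 (1.34%). The range given with a median covers the deposited scale, quantile normalization, median centring and cyclic loess. No member of any list passed the adjusted threshold of 0.05, and members without overlap are to be read against the 2.65% of all genes. In mean level over the list, 3 of the 59 lists had all 8 activity arrays above all SED arrays: both RNA polymerase lists and vesicle transport, with SED 1 lowest in each. This was read on the deposited scale only and was not tested after scaling. After quantile normalization the median differences were 0.012 for RNA polymerase II, -0.019 for RNA polymerases I and III and 0.0045 for vesicle transport. The separate EX and PA medians had opposite signs in 8 functional lists: tRNA synthetases (-0.051 and 0.071), glucose uptake, glycolysis and glycogen (-0.035 and 0.041), lipid droplets, sarcomere and Z-disc proteins, calcium cycling, adrenergic genes, insulin and IGF genes, and mitogen-activated kinases. Each of these lists had a pooled median within 0.053 of 0.

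RNA polymerase II and general transcription factors had 50 of 73 members with a higher mean, a median of 0.11 (0.012 to 0.11) and 0.072 without SED 1. At an unadjusted p under 0.05, 11 were higher and 4 lower. Zinc finger transcription factors, of the Zfp and Zbtb families, had 125 of 204 higher (median 0.066, range 0.0014 to 0.066, and 0.068 without SED 1), with 27 higher and 9 lower at an unadjusted p under 0.05. Of the 204, 5 did not overlap, a share near the 2.65% of all genes: Zfp532 at 0.36 and Zbtb5 at 0.58 were higher, and Zbtb24, Zfp503 at -0.46 and Zbtb17 at -0.38 lower. Without SED 1, Zbtb5 stood at 0.39. Among the subunits of RNA polymerases I and III the split was 15 higher and 9 lower (median 0.05, range -0.019 to 0.05, and 0.062 without SED 1), and a second subunit without overlap, Polr1f, differed by 1.2, or 0.72 without SED 1. Chromatin modifiers and remodellers were split evenly, 46 higher and 43 lower (median 0.014, range -0.055 to 0.014, and 0.025 with 53 higher and 35 lower without SED 1). The deacetylase Hdac10, the member beside Ing3 without overlap, differed by -0.44. Members named here that are not the leading gene of their list were chosen after their values were seen, since they are few.

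Genes of RNA processing and protein synthesis came next. Sf3a1, a subunit of the splicing factor SF3A, read 8.32 to 8.86 (median 8.69) with activity and 7.86, 8.30, 8.09 and 8.51 in SED, with overlap, a difference of 0.43 ± 0.14 (SE) and an adjusted limma p of 0.131. Its dimmer probe set gave -0.071. The splicing list had 36 of 58 higher (median 0.014, range -0.044 to 0.014, and 0.0071 without SED 1). Eif4e3, a cap-binding protein of the eIF4E family, read 7.22 to 8.02 (median 7.54) with activity and 6.12, 7.05, 7.29 and 6.38 in SED. Only PA 4 and SED 3 overlapped, and the difference was 0.85 ± 0.20 (SE), or 0.65 without SED 1, while a second probe set gave 0.86. Eif4ebp1, which holds back cap-dependent translation by binding eIF4E, stood lower without overlap: 7.15 to 7.46 (median 7.34) against 7.68, 7.58, 7.55 and 7.63, a difference of -0.31 ± 0.076 (SE) (adjusted limma p 0.0865), -0.37 in EX and -0.25 in PA. Translation factors as a list had 45 of 59 higher, with a median of 0.12 that became 0.039 without SED 1 and 0.035 after quantile normalization. For tRNA synthetases the split was 17 higher and 13 lower (median 0.022, range -0.059 to 0.022, and 0.0098 without SED 1). Iars1, the isoleucine enzyme, read 7.69 to 8.05 (median 7.85) with activity and 7.40, 7.69, 7.71 and 7.52 in SED, a difference of 0.27 ± 0.092 (SE), and 0.47 at a second probe set. Eprs1, the glutamate and proline enzyme, did not overlap and differed by 0.23. Cytosolic ribosomal proteins had 30 of 41 higher (median 0.037), but 19 higher and a median of -0.005 without SED 1. Their member with the smallest p, Rpl11, read 10.89 to 11.14 (median 11.03) against 10.66, 10.88, 10.95 and 10.90 and went from 0.18 to 0.12 without SED 1.

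**Figure D2:**
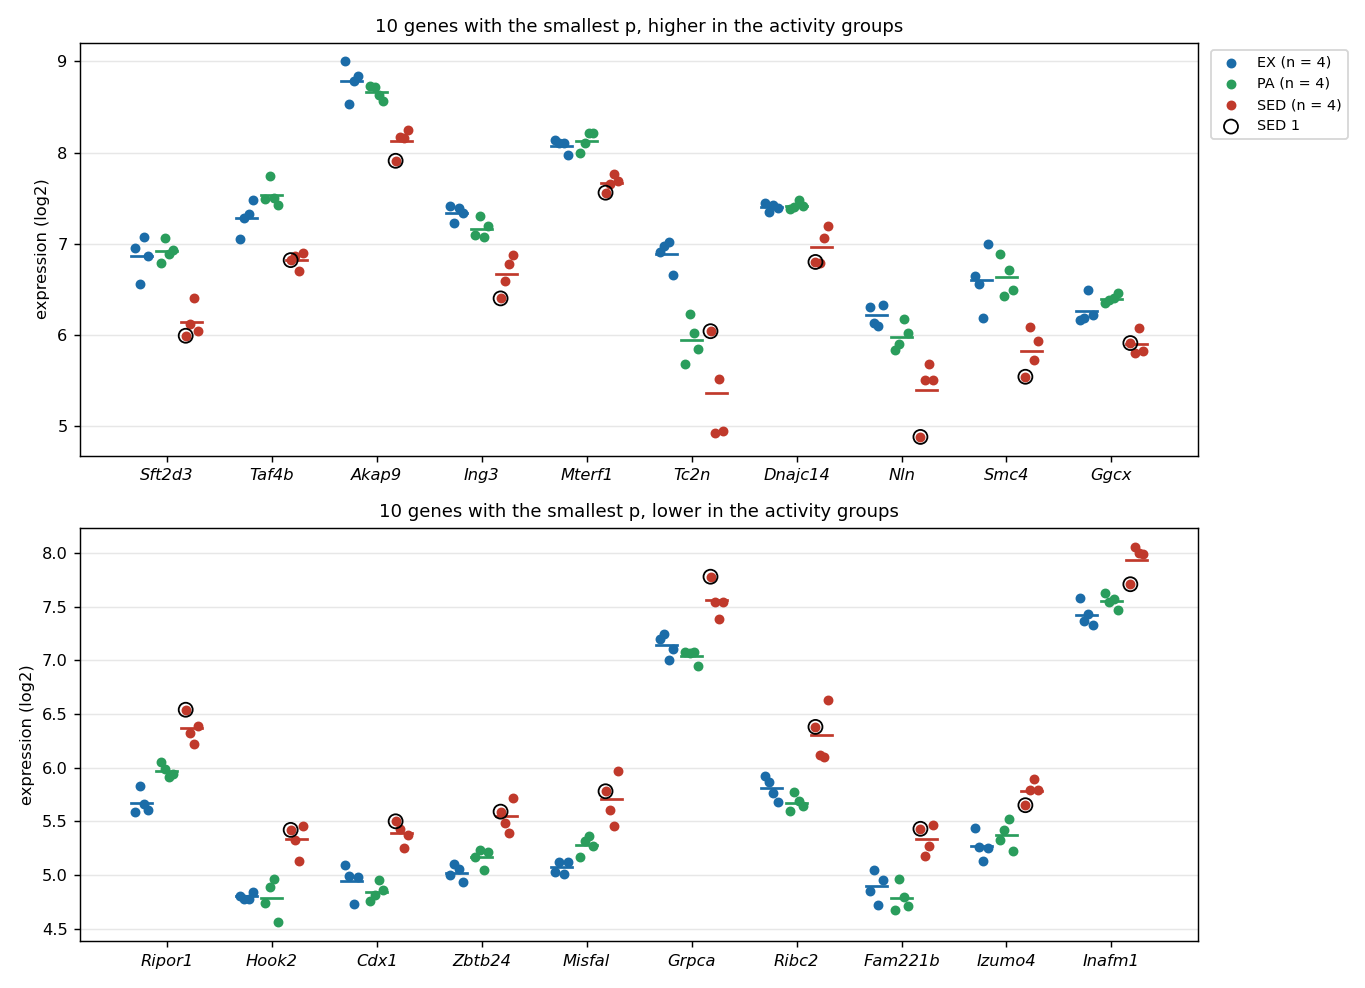
Log2 level (vertical axis) on every array of the 10 genes with the smallest p that were higher (top) and lower (bottom) in the activity groups. Each gene was read and ranked by its brightest probe set. Points are arrays, short lines the means of 4, and a ring marks SED 1. In 9 of the 10 upper genes, all but Tc2n, and in the 10 lower genes, the 8 activity arrays lie apart from the 4 SED arrays.

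Of the energy metabolism genes, read from their brightest probe sets, the one with the smallest p was Mterf1. A dimmer probe set of Vldlr, given below, differed more, by 1.17 ± 0.17 (SE). Mterf1 acts in termination of transcription and in replication of mitochondrial DNA. It read 8.14, 8.10, 8.10 and 7.97 in EX 1 to EX 4, 7.99, 8.11, 8.22 and 8.21 in PA 1 to PA 4 and 7.56, 7.66, 7.76 and 7.69 in SED 1 to SED 4. The lowest activity array was above the highest SED array, and EX and PA covered similar ranges. The difference was 0.44 ± 0.075 (SE), with a 95% interval of 0.27 to 0.60 and an adjusted limma p of 0.0681, and 0.40 without SED 1. The regulators of mitochondrial biogenesis, on whose list it is, had 21 of 26 members higher (median 0.11, and 0.087 without SED 1), but the median was -0.0022 after quantile normalization, with 12 higher and 14 lower. At an unadjusted p under 0.05, 7 were higher and 0 lower. Esrrg, a nuclear receptor of oxidative muscle, was the other member without overlap, at 0.16.

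The structural genes of the respiratory chain leaned higher only with SED 1 in the comparison. Subunits of complexes II to V were higher in 35 of 43 (median 0.045), and without SED 1 in 20 (median -0.0092). For complex I the count went from 25 of 35 (median 0.049) to 12 (median -0.02). Mitochondrial ribosomal proteins went from 52 of 73 (median 0.058) to 33 (median -0.0092). The change of direction on leaving out this 1 array was thus common to these lists, whose lowest array was SED 1 in each case. Ndufb10, the leading complex I subunit, read 11.06 to 11.43 (median 11.28) with activity and 10.72, 11.24, 11.12 and 11.10 in SED, and its difference of 0.24 became 0.13 without SED 1. Cox4i2, the oxygen-sensitive isoform of a complex IV subunit, read 7.46, 7.80, 7.87 and 7.68 in EX, 7.83, 8.0, 8.0 and 8.01 in PA and 7.5, 7.79, 7.43 and 7.76 in SED, a difference of 0.21 ± 0.10 (SE). EX 1 and EX 4 lay within the SED range and the other 6 activity arrays above it. Mrpl38, of the large mitochondrial ribosomal subunit, stood at 6.35 to 6.78 (median 6.58) against 6.97, 6.79, 6.93 and 6.60, a difference of -0.27 ± 0.10 (SE), opposite in sign to its list's median on the deposited scale.

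Substrate genes gave few separations. Vldlr, a receptor that takes up triglyceride-rich lipoproteins, read 10.07 to 10.33 (median 10.14) with activity and 9.55, 10.04, 9.94 and 9.89 in SED. The groups did not overlap, and the difference was 0.31 ± 0.10 (SE), or 0.20 without SED 1. Its 3 other tested probe sets gave 0.53 ± 0.14 (SE), 1.17 ± 0.17 (SE) and 0.23 ± 0.11 (SE), all higher, so the brightest one was not the one that differed most. A Vldlr probe set also had the smallest limma p of PA against SED, where none passed the adjusted threshold. Hadha, a subunit of the trifunctional protein of fatty acid oxidation, was the other fatty acid gene without overlap, at 0.11. In the list of fatty acid uptake and oxidation 24 of 34 were higher (median 0.082, range 0.044 to 0.082, and 0.058 without SED 1), with 2 higher and 0 lower at an unadjusted p under 0.05. In the citric acid cycle and pyruvate dehydrogenase list 20 of 23 were higher (median 0.058), and without SED 1 16 were (median 0.03, and 0.0013 without SED 1 and SED 3). Pdp2, a phosphatase that activates pyruvate dehydrogenase, read 8.11 to 8.42 (median 8.29) against 7.78, 8.24, 8.03 and 7.82, a difference of 0.31 ± 0.10 (SE), and 0.23 at another probe set.

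Slc25a44, a carrier of branched-chain amino acids into mitochondria, read 7.78 to 8.29 (median 8.14) with activity and 7.48, 7.81, 7.65 and 7.78 in SED, a difference of 0.41 ± 0.11 (SE) (adjusted limma p 0.0939), with 0.15 at a dimmer probe set. The mitochondrial carriers as a list were split 19 to 15 (median 0.013, range -0.029 to 0.013, and 0.012 without SED 1). Glucose uptake, glycolysis and glycogen genes were split 14 to 13 (median 0.0088, range -0.025 to 0.0088, and -0.027 with 12 higher and 16 lower without SED 1). Phkb, a regulatory subunit of phosphorylase kinase, had the smallest p among them, at 8.23 to 8.51 (median 8.42) against 8.04, 8.32, 8.0 and 8.21, a difference of 0.25 ± 0.089 (SE). Of the lipid droplet genes 10 of 18 were lower (median -0.052, and -0.00021 without SED 1). Mgll, the monoglyceride lipase, read 7.96 to 8.33 (median 8.14) against 8.61, 8.38, 8.23 and 8.40, a difference of -0.27 ± 0.093 (SE), but its other probe sets gave 0.22 and 0.048.

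**Figure D3:**
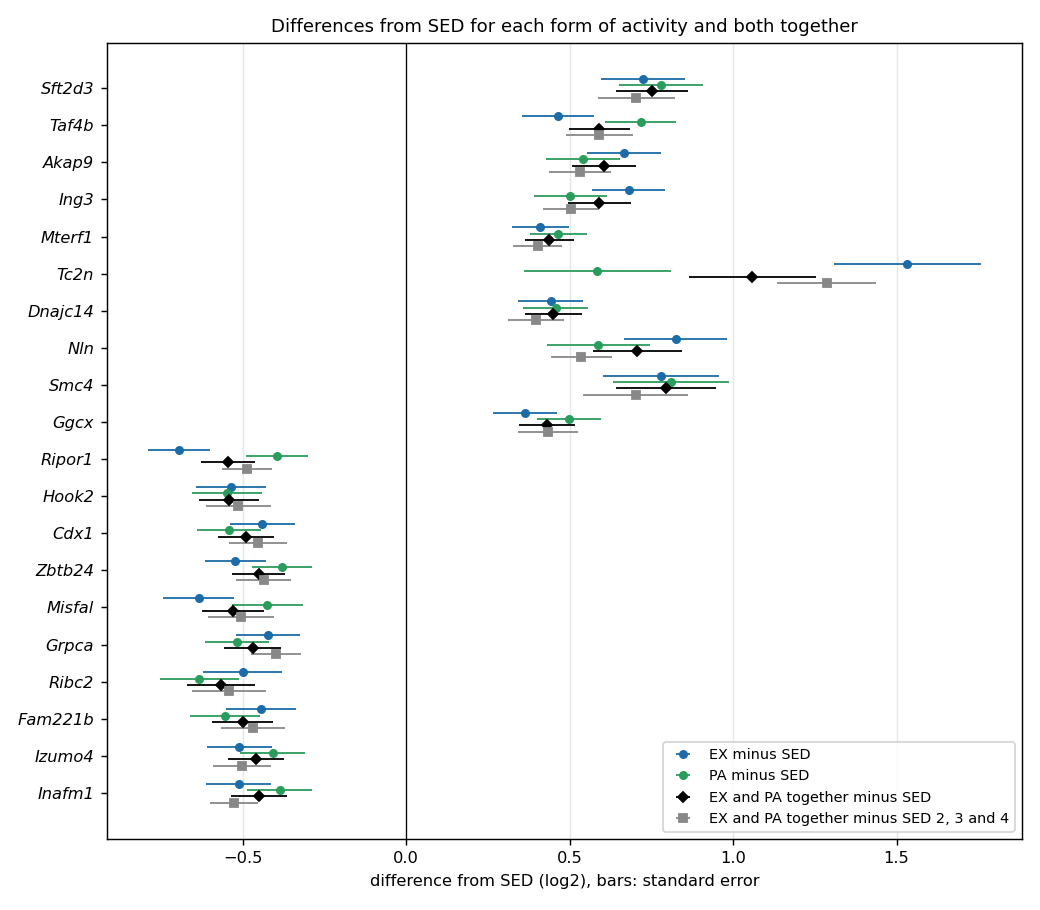
Log2 differences from SED (horizontal axis) of the 20 genes with the smallest p at their brightest probe sets. They are given for EX, for PA, for both together and for both against SED 2, 3 and 4. Bars are standard errors, and all comparisons share SED arrays. In each gene both forms lie on the same side of 0; they lie farthest apart in Tc2n, at 1.53 for EX and 0.59 for PA.

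Genes of excitation and of protein kinase A anchoring included some of the clearest separations. Akap9 anchors protein kinase A at the Golgi and centrosome, and its Yotiao form ties the kinase to a cardiac potassium channel. It read 9.0, 8.53, 8.79 and 8.84 in EX 1 to EX 4, 8.73, 8.72, 8.63 and 8.57 in PA 1 to PA 4 and 7.91, 8.17, 8.16 and 8.25 in SED 1 to SED 4. All 8 activity arrays lay above all 4 SED arrays, and the difference was 0.60 ± 0.10 (SE) (adjusted limma p 0.0681), 0.67 in EX and 0.54 in PA, or 0.53 without SED 1. A dimmer probe set of Akap9 gave 0.14. The adrenergic, muscarinic and protein kinase A list, of which it is a member, had 22 higher and 16 lower (median 0.0094, range -0.018 to 0.0094, and 0.01 without SED 1). Kcnq5, a voltage-gated potassium channel, stood lower without overlap: 6.23 to 6.54 (median 6.41) with activity and 6.90, 6.75, 6.64 and 6.90 in SED, a difference of -0.41 ± 0.084 (SE) (adjusted limma p 0.0681), or -0.37 without SED 1. Its dimmer probe sets gave -0.21 and 0.031. Kcnd2, a channel of the transient outward current, was the potassium channel that stood higher without overlap, by 0.78 (0.97 in EX and 0.59 in PA), or 0.51 without SED 1. Potassium channels as a list were split 15 higher and 17 lower (median -0.0063, range -0.026 to -0.0063, and 0.03 with 19 higher and 13 lower without SED 1).

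Sodium, calcium and pacemaker channels stood lower as a list: 13 of 17 members were lower, with a median of -0.23 (-0.24 to -0.16 over the scalings). At an unadjusted limma p under 0.05, 8 were lower and 2 higher. Without SED 1 the count was 9 lower and 8 higher, with a median of -0.17. The list was dim, with a median level of 5.46, and 10 of its 13 lower members lay below a level of 6. Cacna1d, an L-type calcium channel of pacemaker cells, read 4.66 to 5.15 (median 5.01) with activity and 5.75, 5.29, 5.35 and 5.09 in SED, with overlap, a difference of -0.42 ± 0.13 (SE). Cacng2, an auxiliary subunit best known from neurons, did not overlap and stood at -0.38, or -0.20 without SED 1. Of the bright members, the main ventricular calcium channel subunit Cacna1c differed by 0.10 at a level of 10.66, and Cacna2d1, an auxiliary subunit, by 0.47. The lower members outside those 10 were also at a level of 6 or above, so the lower side was not confined to dim genes.

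Contraction genes differed little. Lmod2, which nucleates actin filaments, had the smallest p of the sarcomere and Z-disc proteins, at 11.21 to 11.45 (median 11.27) with activity and 11.02, 11.24, 10.99 and 11.22 in SED, a difference of 0.17 ± 0.082 (SE). That list was split 18 higher and 12 lower (median 0.015, range -0.0094 to 0.015, and 0.0054 without SED 1), the calcium cycling list 12 to 13 (median -0.0037, and -0.0013 without SED 1) and the intercalated disc list 7 to 8 (median -0.0025, and 0 without SED 1). Tmco1, which lets calcium leak from an overfilled endoplasmic reticulum, read 7.72, 8.51, 8.36 and 7.88 in EX, 7.17, 7.45, 7.21 and 6.99 in PA and 7.17, 6.73, 7.35 and 6.81 in SED. Its EX arrays were high and its PA arrays overlapped the SED arrays, with differences from SED of 1.10 and 0.19 and an unadjusted limma p of 0.000552 between EX and PA. Dsc2, a desmosomal cadherin, read 10.14 to 10.45 (median 10.20) against 9.68, 10.16, 10.13 and 10.07, and its difference of 0.24 became 0.13 without SED 1. Nfatc2, a transcription factor downstream of calcineurin, was the gene of the hypertrophy and fetal-program list without overlap: 7.64 to 8.18 (median 7.83) with activity against 7.39, 7.63, 7.44 and 7.35 in SED, a difference of 0.41 ± 0.11 (SE), or 0.39 without SED 1, with 0.11 at a dimmer probe set. In that list 14 of 24 members were higher (median 0.015, range -0.02 to 0.015, and 0.0088 without SED 1).

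Of the genes lower with activity, Ripor1 had the smallest p. It read 5.59, 5.83, 5.66 and 5.61 in EX 1 to EX 4, 6.05, 5.99, 5.91 and 5.94 in PA 1 to PA 4 and 6.54, 6.32, 6.22 and 6.39 in SED 1 to SED 4. The 3 groups were graded, with EX lowest, PA between and SED highest, and no array of a group lay within another group's range. The difference was -0.55 ± 0.081 (SE) (adjusted limma p 0.0681), -0.70 in EX and -0.40 in PA, with an unadjusted p of 0.0077 between them, and -0.49 without SED 1.

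Bambi, a decoy receptor that dampens TGF-beta and BMP signals, read 6.53, 6.37, 6.55 and 6.57 in EX, 6.93, 6.85, 6.60 and 6.64 in PA and 6.04, 6.24, 6.10 and 6.33 in SED. Every activity array was above every SED array, and the difference was 0.45 ± 0.091 (SE) (adjusted limma p 0.0681), or 0.41 without SED 1. Of the receptors, Bmpr1a stood higher without overlap, by 0.18, and the activin receptor Acvr2b lower, at -0.29. The TGF-beta and BMP list had 26 of 40 members higher (median 0.10, range 0.066 to 0.10, and 0.068 without SED 1), with 7 higher and 5 lower at an unadjusted p under 0.05.

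Of the 50 mitogen-activated kinase pathway genes, 4 did not overlap, where 2.65% of all genes did not. Mapk8ip2, a scaffold of the JNK pathway, read 5.53 to 5.93 (median 5.69) with activity and 6.31, 6.15, 5.96 and 6.46 in SED, a difference of -0.51 ± 0.10 (SE) (adjusted limma p 0.0681), or -0.48 without SED 1. Its relative Mapk8ip3 stood at -0.50, and the kinase Map2k2 at -0.17. Dusp10, a phosphatase that inactivates JNK and p38, stood higher, by 0.48. The list as a whole was split 27 to 23 (median 0.017, range -0.058 to 0.017, and 0.064 without SED 1).

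Growth, hormone, clock and early response genes followed. Insulin, IGF and PI3K-Akt genes were split 16 to 14 (median 0.0063, range -0.065 to 0.0063, and 0.038 without SED 1). Nr3c2, the mineralocorticoid receptor, read 8.61 to 9.16 (median 8.79) with activity and 7.96, 8.10, 8.92 and 8.62 in SED, with SED 3 and SED 4 among the activity arrays, and its difference of 0.41 became 0.26 without SED 1. Its list of renin-angiotensin, corticosteroid and natriuretic genes had 11 of 18 higher (median 0.031, range -0.013 to 0.031, and 0.05 without SED 1). Bhlhe41, a repressor in the clock, read 8.89 to 9.53 (median 9.28) against 9.11, 9.35, 8.70 and 8.76, a difference of 0.27 ± 0.15 (SE) with a 95% interval of -0.051 to 0.59, and 0.17 without SED 3. The clock list had 12 of 19 higher (median 0.075, range 0.016 to 0.075, and 0.068 without SED 1). Immediate early genes had 12 of 19 lower (median -0.084, range -0.13 to -0.084, and -0.042 with 7 higher and 12 lower without SED 1, and 0.037 without SED 1 and SED 3). Junb, a subunit of AP-1, read 5.75 to 6.22 (median 5.89) against 6.41, 6.11, 6.24 and 6.03, a difference of -0.27 ± 0.11 (SE), or -0.19 without SED 1.

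Among genes of protein traffic and folding was the named gene whose brightest probe set had the smallest p. Sft2d3, a Golgi membrane protein of vesicle transport, read 6.95, 6.56, 7.07 and 6.87 in EX 1 to EX 4, 6.79, 7.06, 6.89 and 6.93 in PA 1 to PA 4 and 5.99, 6.12, 6.40 and 6.04 in SED 1 to SED 4. The groups did not overlap, and the difference was 0.75 ± 0.11 (SE) with a 95% interval of 0.51 to 0.99, a fold of 1.68 and an adjusted limma p of 0.0681. Both forms gave nearly the same value, 0.73 for EX and 0.78 for PA, and leaving out SED 1 gave 0.70. Vesicle transport as a list had 122 of 182 members higher (median 0.073, range 0.0042 to 0.073, and 0.051 without SED 1), with 21 higher and 8 lower at an unadjusted p under 0.05. The endosomal sorting genes Vps4b and Vps18 did not overlap and stood at 0.31 and -0.37. Hook2, which links cargo to the motor dynein, stood lower: 4.56 to 4.96 (median 4.79) against 5.42, 5.33, 5.13 and 5.46, a difference of -0.54 ± 0.092 (SE) without overlap. Its activity mean lay below the filter of 4.94, so it was tested only through the SED arrays, where it is high.

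Dnajc14, a cochaperone in the endoplasmic reticulum, read 7.35 to 7.48 (median 7.41) on the 8 activity arrays and 6.80, 6.79, 7.06 and 7.19 in SED. The activity arrays were tight and lay above all SED arrays, and the difference was 0.45 ± 0.086 (SE) (adjusted limma p 0.0681), or 0.40 without SED 1, with 0.14 at a dimmer probe set. Heat shock proteins and cochaperones had 48 of 75 higher (median 0.046, range -0.0046 to 0.046, and 0.0083 with 42 higher and 33 lower without SED 1), and 9 higher against 1 lower at an unadjusted p under 0.05, which became 5 against 1 without SED 1. Beside Dnajc14, Hspa14 at 0.40 and Dnajc7 at 0.31 (0.18 without SED 1) did not overlap.

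Genes of protein breakdown went both ways. Psmb10, a subunit of the immunoproteasome, read 6.49 to 7.29 (median 6.77) with activity and 8.34, 7.06, 7.35 and 7.44 in SED. SED 1 was far above the rest, the groups overlapped, and the difference of -0.73 ± 0.21 (SE) became -0.47 without SED 1. The proteasome list had 32 of 46 higher (median 0.065, range 0.015 to 0.065, and 0.02 with 25 higher and 21 lower without SED 1), with Psmb2 higher without overlap, by 0.25. Fbxl12, a substrate receptor of a ubiquitin ligase, stood at 5.44 to 6.11 (median 5.83) against 6.48, 6.43, 6.29 and 6.08, with overlap at the edge, a difference of -0.51 ± 0.11 (SE) (adjusted limma p 0.0706). Among ubiquitin genes 102 of 164 were higher (median 0.054, range -0.021 to 0.054, and 0.036 without SED 1). Of these, Fbxo32, the muscle atrophy ligase atrogin-1, stood higher without overlap by 0.43 (0.47 without SED 1), Cul5 by 0.25, and Rnf227 lower, at -0.20.

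Usp13, a deubiquitinase, read 11.48 to 11.63 (median 11.58) against 11.40, 11.41, 11.48 and 11.36, a difference of 0.15 ± 0.064 (SE), and its list had 32 of 46 higher (median 0.051, range -0.011 to 0.051, and 0.054 without SED 1). Ulk2, a kinase that starts autophagy, stood higher without overlap: 9.50 to 9.75 (median 9.57) with activity and 9.17, 9.39, 9.36 and 9.26 in SED, a difference of 0.30 ± 0.079 (SE) (adjusted limma p 0.0966), or 0.26 without SED 1. Atg14, of the kinase complex that acts next, did not overlap either, at 0.32, or 0.15 without SED 1. The autophagy and lysosome list was split 15 higher and 17 lower (median -0.013, range -0.074 to -0.013, and 0.019 with 20 higher and 12 lower without SED 1).

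Of the genes of redox defence, survival and cell division, Gss, the enzyme of the last step of glutathione synthesis, read 6.90, 7.04, 6.87 and 7.26 in EX, 6.84, 6.79, 7.14 and 7.31 in PA and 5.64, 6.55, 6.62 and 6.45 in SED. The activity arrays were all above SED and SED 1 was far below the other SED arrays. The difference was 0.70 ± 0.18 (SE), or 0.48 without SED 1, with 0.70 in EX and 0.71 in PA. Glutathione, superoxide and peroxide genes as a list had 19 of 31 higher (median 0.048), and 16 without SED 1 (median 0.0017). Smc4, a condensin subunit that compacts chromosomes, read 6.19 to 7.0 (median 6.61) with activity and 5.54, 6.09, 5.72 and 5.93 in SED, a difference of 0.80 ± 0.15 (SE) without overlap, or 0.70 without SED 1. Bcl2l11, the proapoptotic protein Bim, stood at 8.15 to 8.56 (median 8.37) against 7.93, 8.18, 8.06 and 7.98, a difference of 0.34 ± 0.085 (SE) with overlap at the edge. In the apoptosis and cell cycle list 35 of 60 were higher (median 0.034, range -0.033 to 0.034, and 0.02 without SED 1). Cdkn2c, an inhibitor of cyclin-dependent kinases, was lower without overlap, at -0.39, and the kinase Cdk14 higher, by 0.18.

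Among matrix and vessel genes, Itga8 is an integrin subunit that binds matrix proteins with an RGD motif. It read 4.96, 4.73, 5.21 and 5.50 in EX, 5.26, 5.26, 5.23 and 5.19 in PA and 4.49, 4.63, 4.62 and 4.64 in SED, without overlap. The difference was 0.57 ± 0.12 (SE) (adjusted limma p 0.0681), or 0.54 without SED 1, but all SED arrays lay below the filter of 4.94, so it was tested only through the activity arrays, where it is high. Integrins and laminins as a list were split 12 to 10 (median 0.011, range -0.017 to 0.011, and 0.02 without SED 1). Vegfc, a growth factor of lymphatic vessels, read 7.45 to 8.09 (median 7.76) with activity and 7.15, 7.33, 6.92 and 7.40 in SED, again without overlap, a difference of 0.52 ± 0.13 (SE) (0.62 in EX and 0.43 in PA). Angiogenesis and endothelial signalling genes had 22 of 36 higher (median 0.016, range -0.029 to 0.016, and 0.024 without SED 1), with 9 higher and 2 lower at an unadjusted p under 0.05.

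Collagens had 17 of 22 members higher and a median of 0.13 (0.049 to 0.13), and a median of 0.033 with 13 higher once SED 1 was left out. The collagen with the smallest p went the other way: Col8a1, of vessel walls, read 5.21 to 6.07 (median 5.57) against 5.77, 6.15, 6.05 and 5.71, a difference of -0.34 ± 0.15 (SE). Matrix glycoproteins and remodelling enzymes had 25 of 41 higher (median 0.083, and 0.027 without SED 1). Adamts9, a protease that cleaves proteoglycans, led that list at 8.79 to 9.25 (median 9.18) against 8.73, 8.83, 8.95 and 8.82, a difference of 0.29 ± 0.093 (SE).

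**Figure D4:**
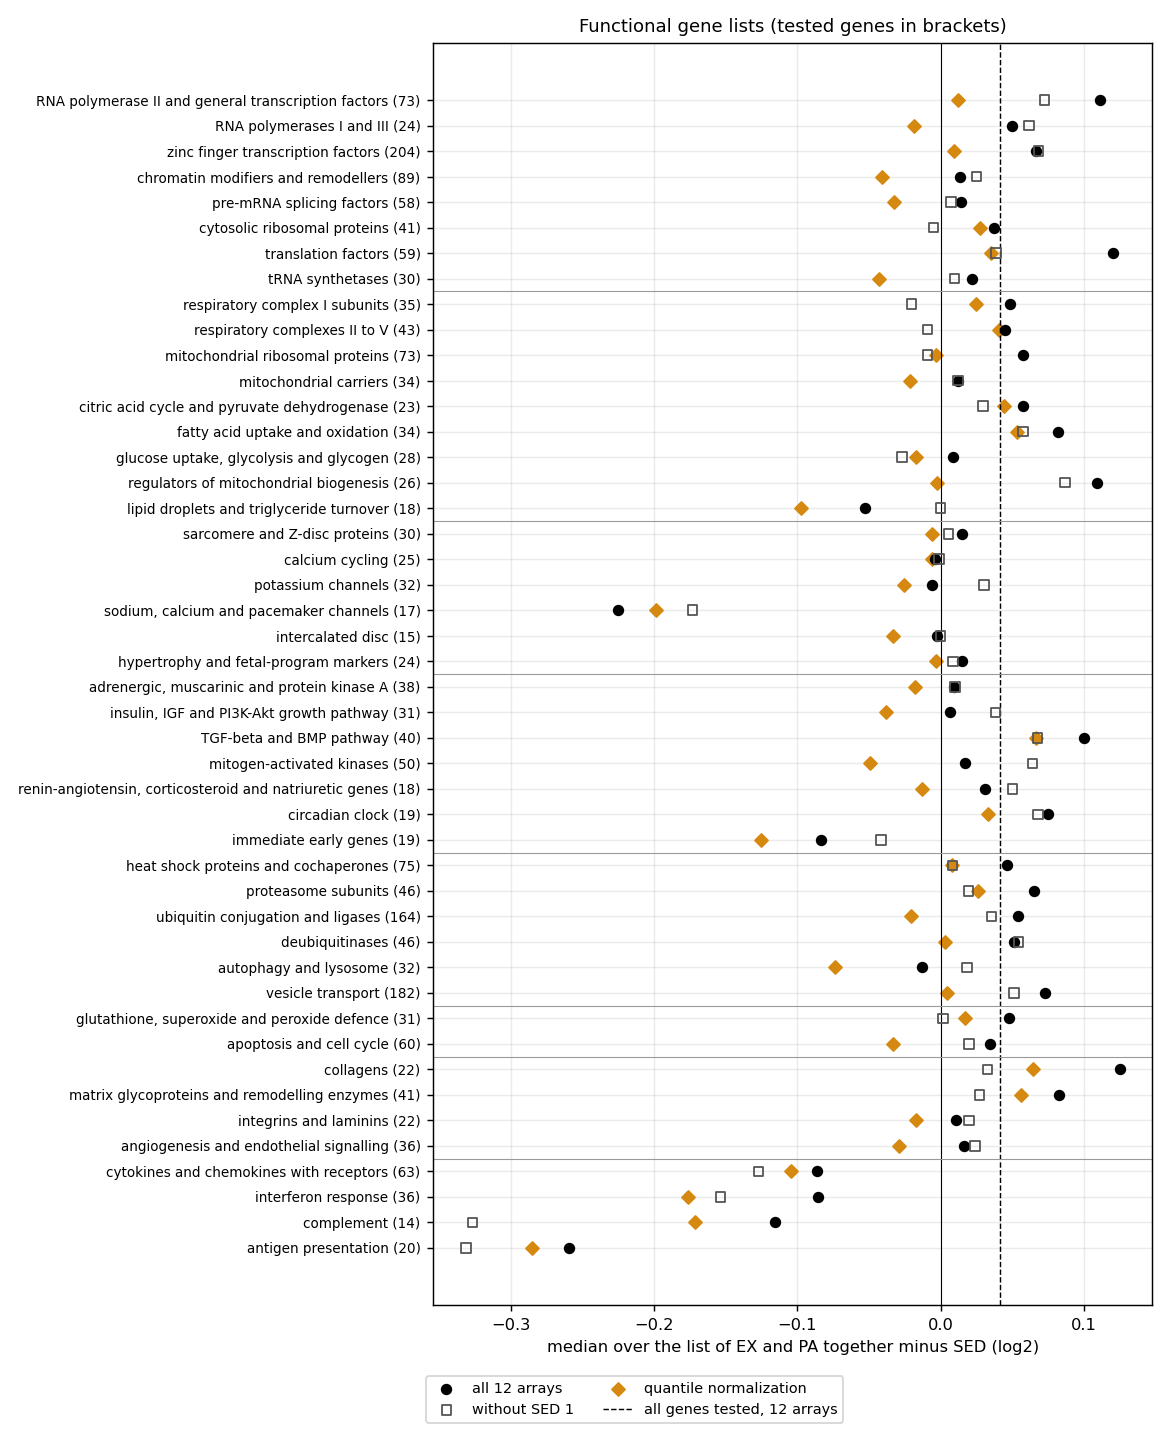
Median log2 difference from SED of EX and PA together (horizontal axis) for the functional lists, with the number of tested genes in brackets: all 12 arrays (filled circles), without SED 1 (open squares) and after quantile normalization (diamonds); the dashed line is the median of all genes tested, 0.041. Most lists lie within 0.13 of 0, and antigen presentation (-0.26) and sodium, calcium and pacemaker channels (-0.23) lie lowest with 12 arrays.

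Immune genes had lower medians with activity, and these medians came close to 0 or turned when SED 3 alone was left out. Antigen presentation genes were lower in 17 of 20 (median -0.26, range -0.29 to -0.26, and -0.33 without SED 1). Their mean, relative to its mean over the 12 arrays, was -0.022, -0.15, -0.13 and -0.012 in EX 1 to EX 4, -0.10, -0.14, 0.0063 and -0.12 in PA 1 to PA 4 and -0.08, -0.069, 0.66 and 0.15 in SED 1 to SED 4. SED 3 stood far above every other array, SED 4 came next, and SED 1 and SED 2 lay among the activity arrays. Without SED 3 the median was -0.043, with 14 lower and 6 higher. At an unadjusted limma p under 0.05, 4 members were lower and 0 higher. RT1-Ba, a class II chain that presents peptides to helper T cells, read 6.27 to 7.01 (median 6.58) with activity and 7.18, 6.81, 7.64 and 6.80 in SED, with overlap. Its difference of -0.51 ± 0.18 (SE) was -0.49 without SED 1 and -0.34 without SED 3, and a second probe set gave -0.36. RT1 genes have near-identical copies, so probes may not tell them apart.

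Interferon response genes had 23 of 36 lower (median -0.086, range -0.18 to -0.086), -0.15 without SED 1 and -0.018 without SED 3. Irf1, a transcription factor induced by interferon, read 6.68, 6.77, 6.36 and 6.34 in EX, 6.40, 6.75, 6.69 and 6.66 in PA and 7.25, 6.77, 7.34 and 7.04 in SED, with SED 2 equal to the highest activity array. The difference was -0.52 ± 0.13 (SE) (adjusted limma p 0.0859), -0.47 without SED 1 and -0.44 without SED 3. Complement genes had 10 of 14 lower (median -0.12, and -0.33 without SED 1), but without SED 3 the median turned to 0.051 with 8 higher. C3, the central complement component, read 5.52, 5.47, 5.20 and 5.51 in EX, 5.47, 5.59, 6.01 and 5.64 in PA and 5.94, 6.06, 7.26 and 6.11 in SED. All SED arrays but SED 1 were above all activity arrays, SED 3 by far, and the difference of -0.79 ± 0.22 (SE) was -0.93 without SED 1 and -0.49 without SED 3.

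Cytokines and chemokines with their receptors had 38 of 63 lower (median -0.086, range -0.10 to -0.074, and -0.13 without SED 1), but a median of 0.026 without SED 3. Cxcl3, a chemokine for neutrophils, stood lower without overlap: 4.84 to 5.29 (median 5.05) against 5.61, 5.37, 5.53 and 5.34, a difference of -0.40 ± 0.093 (SE) (adjusted limma p 0.0767), -0.35 without SED 1 and -0.38 without SED 3. Il12b, a cytokine chain, was the other member without overlap, at -0.27, or -0.16 without SED 1. Leukocyte markers followed the same arrays, with 17 of 21 lower (median -0.12), -0.23 without SED 1 and -0.033 without SED 3, and a level of 0.61 in SED 3 against -0.22 to 0.23 on the activity arrays. Blk, a B-cell kinase, read 5.28, 5.41, 5.02 and 4.98 in EX, 5.02, 4.91, 4.76 and 4.91 in PA and 5.55, 5.49, 5.53 and 5.39 in SED. It did not follow SED 3: the SED arrays were alike, EX 2 alone reached them, and the difference of -0.45 ± 0.095 (SE) (adjusted limma p 0.0681) was -0.44 without SED 3. The defining B-cell genes Ms4a1 and Cd79b lay below the filter. Blood cell markers stood at 0.93 in SED 3 and -0.80 in SED 1, and their part in the immune differences was not tested.

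**Figure D5:**
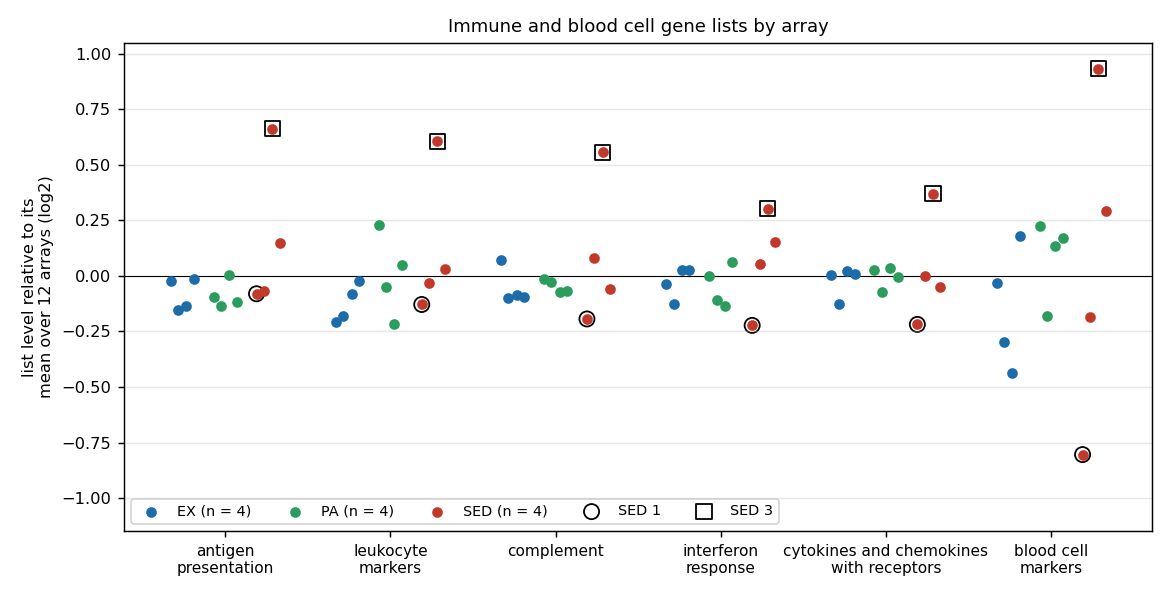
Mean log2 level of each immune or blood cell list relative to its mean over the 12 arrays (vertical axis), one point per array, for EX, PA and SED; a ring marks SED 1 and a square SED 3. SED 3 is the highest array of every list shown, at 0.66 for antigen presentation, while the other SED arrays lie from -0.080 to 0.15 there, next to the activity arrays at -0.15 to 0.0063.

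Several leading genes belong to no list. Tc2n, a protein with C2 domains, read 6.91, 6.97, 7.02 and 6.66 in EX 1 to EX 4, 5.68, 6.23, 6.02 and 5.84 in PA 1 to PA 4 and 6.04, 4.92, 5.52 and 4.95 in SED 1 to SED 4. EX stood highest, PA between, and SED 1 stood among the PA arrays while SED 2 to SED 4 lay below them. The difference was 1.06 ± 0.19 (SE) with an adjusted limma p of 0.0681, and without SED 1 it was 1.29 ± 0.15 (SE) with an adjusted p of 0.0431, past the threshold. The forms were unlike in size, 1.53 for EX and 0.59 for PA, with an unadjusted p of 0.00125 between them. The N4bp1 probe set that passed without SED 1 read 7.61, 7.12, 7.47 and 7.14 in EX, 6.84, 6.58, 6.58 and 6.73 in PA and 6.64, 6.15, 5.84 and 6.02 in SED. Its difference was 0.85 with all arrays and 1.0 without SED 1, where the adjusted limma p was 0.0431. As with Tc2n the forms were unlike in size, with an unadjusted limma p of 0.00242 between EX and PA, and SED 1 stood among the PA arrays. The brightest probe set of N4bp1, which encodes a protein that restrains inflammatory signalling, differed by 0.083.

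Nln, the peptidase neurolysin, read 5.83 to 6.33 (median 6.12) with activity and 4.88, 5.51, 5.68 and 5.50 in SED, a difference of 0.71 ± 0.14 (SE) without overlap, or 0.54 without SED 1, the lowest array. Ggcx, the vitamin K-dependent carboxylase, read 6.16 to 6.49 (median 6.37) against 5.91, 5.80, 6.07 and 5.82, a difference of 0.43 ± 0.085 (SE) that was 0.43 without SED 1. Both separated the groups in each form of activity, at 0.83 and 0.59 for Nln and 0.36 and 0.50 for Ggcx in EX and PA.

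Lower with activity were genes best known from other tissues, or known here by name only. Cdx1, a homeobox factor of the intestine, read 4.73 to 5.09 (median 4.91) with activity and 5.50, 5.43, 5.25 and 5.37 in SED, a difference of -0.49 ± 0.085 (SE). Ribc2, a protein of ciliary microtubules, read 5.60 to 5.92 (median 5.73) against 6.38, 6.12, 6.10 and 6.63, a difference of -0.57 ± 0.10 (SE). Izumo4, of a family of sperm proteins, read 5.13 to 5.52 (median 5.30) against 5.65, 5.79, 5.89 and 5.79, a difference of -0.46 ± 0.086 (SE). Without SED 1 these 3 stood at -0.45, -0.54 and -0.50. Misfal read 5.01 to 5.36 (median 5.15) with activity and 5.78, 5.61, 5.46 and 5.97 in SED, a difference of -0.53 ± 0.094 (SE). Fam221b read 4.67 to 5.05 (median 4.82) against 5.43, 5.18, 5.27 and 5.47, a difference of -0.50 ± 0.093 (SE). Grpca, a glutamine- and glutamate-rich protein known from salivary glands, stood at 6.95 to 7.25 (median 7.08) against 7.78, 7.54, 7.39 and 7.54, a difference of -0.47 ± 0.086 (SE). All of these genes were without overlap, and each had an adjusted limma p of 0.0681, but Cdx1 and Fam221b had activity means below the filter and were tested only through their high SED arrays. Inafm1 read 7.33 to 7.63 (median 7.51) with activity and 7.71, 8.06, 8.0 and 7.99 in SED, a difference of -0.45 ± 0.085 (SE), or -0.53 without SED 1, but a dimmer probe set gave 0.23.

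Markers of other cell types gave no list that separated the groups. Of the atrial markers 5 of 10 were higher (median 0.13, range 0.079 to 0.13, and 0.15 without SED 1), and the EX arrays alone spanned -0.39 to 0.51 around the mean. Kcnj3, a G-protein-gated potassium channel strong in atria, read 9.30 to 9.89 (median 9.66) against 8.94, 9.22, 9.31 and 9.16, with overlap only at PA 2 and SED 3, a difference of 0.48 ± 0.11 (SE) (adjusted limma p 0.0771), and 0.40 at a second probe set. Fibroblast markers were higher in 9 of 12 (median 0.13), and their median was 0.033 without SED 1. Lum, a small proteoglycan, read 10.25 to 10.68 (median 10.54) against 9.83, 10.34, 10.39 and 10.40, and its difference of 0.27 became 0.13 without SED 1. Endothelial markers were split 4 to 6 (median -0.048, and 0.021 without SED 1), with the junction protein Esam at 8.17 to 8.76 (median 8.55) against 8.04, 8.16, 8.56 and 7.86, a difference of 0.35 ± 0.14 (SE). For smooth muscle and pericytes the split was 4 to 6 (median -0.031, and -0.065 without SED 1), with Des, an intermediate filament that heart muscle also makes, at -0.15.

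Several of the remaining marker lists held few genes above the filter. Ckmt2, the mitochondrial creatine kinase, had the smallest p of the ventricular markers, at 0.12 ± 0.066 (SE), or 0.079 without SED 1. Hbb, a globin of red cells, differed by 0.21 and, without SED 1, by 0.09, and blood cell markers by a median of 0.0088 that was -0.23 without SED 1 and 0.25 without SED 3. Mast cell markers had 2 of 10 genes above the filter, with Mcpt1l1 at -0.21 ± 0.15 (SE). Of the adipocyte markers 5 of 11 were tested and the fat hormone genes Adipoq and Lep lay below the filter. Ucp1 differed by -0.30. Of the nerve and Schwann cell markers 5 of 11 were tested, with the noradrenaline enzyme Dbh at 4.71 to 5.11 (median 5.02) against 5.66, 5.35, 5.10 and 5.30, a difference of -0.38 ± 0.11 (SE), or -0.28 without SED 1. Epicardium and mesothelium markers were split 3 to 3 (median 0.021, and -0.042 without SED 1), and C3, described above, led them. Skeletal muscle markers had 4 of 10 genes tested (median 0.0025, and -0.0013 without SED 1), with Acta1, a skeletal actin that the heart also makes, at 0.20 ± 0.23 (SE) and 0.10 without SED 1 and 0.028 without SED 3.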

How the data were processed

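Affymetrix rat arrays of 12 pooled left ventricle samples were used, 4 each of EX, PA and SED. The authors deposited log2 values per probe set; MAS5 and RMA are both named, per the submitters' processing notes, and which of them made these values is not settled. Array medians were alike on deposit, so no further scaling was applied. Scanner files were not used here.

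The 57 control probe sets were left out, and the 18626 of 31042 others with a mean of at least 4.94 (the upper 60%) were tested. Gene symbols came from the platform's annotation (20826 probe sets with 1 symbol, 436 with several, 9780 with none), and 20758 symbols matched the RefSeq gene table unchanged. A gene was read from its tested probe set with 1 symbol and the highest mean. A model with 3 group means was fitted to all 12 arrays with limma 3.58.1 in R 4.3.3, with the contrast (EX + PA)/2 minus SED and Benjamini-Hochberg adjustment over all 18626 probe sets at 0.05. The fit was repeated without SED 1. The procedure was tested on simulated data. Precision is limited by the number of arrays.

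Groups came from the sample titles. The genes named were, since no gene passed the threshold with 12 arrays, the 10 with the smallest p in each direction and the member of each of 59 functional lists with the smallest p; other genes named were chosen after their values were seen. The comparison, its members and the lists were chosen with earlier results of these data known. The result of 1 list is not reported here. The lists' members were written from general knowledge and are not complete. Promoters came from a RefSeq table on GRCr8, in which Tc2n and Grpca had no entry. Plots used Python 3.11.15 and matplotlib 3.10.9. Alternatives covered the scaling, filter, offset, array weights, model, replicate block, threshold, minimum fold, averaged probe sets and left-out arrays.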

Additional observations from a re-analysis of the deposited data

Results flagged for a closer look

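Of 246 groups of 4 arrays checked (EX, PA and SED for each of the 70 named genes and 12 marker lists), 7 held 1 array far from the other 3 by Dixon's test at the 95% level, a test that flags about 1 group in 20 by chance. C3 was involved in 2 of them: SED 3 read 7.26 where the other SED arrays read 5.94 to 6.11, and EX 3 read 5.20 where the other EX arrays read 5.47 to 5.52. SED 1 was the distant array for Lum, at 9.83 against 10.34 to 10.40, and for Itga8, at 4.49 against 4.62 to 4.64. In the activity groups PA 4 read 6.95 for Grpca against 7.07 to 7.08, PA 2 read 8.32 for Sf3a1 against 8.78 to 8.86, and PA 1 read 7.83 for Cox4i2 against 8.0 to 8.01.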

How the results depend on the processing

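The count of probe sets past the threshold depended on the setting. For EX and PA together against SED it was 0 with all arrays, 1 after quantile normalization, median centring, cyclic loess or with the replicate block, 135 with both forms as a single group, 184 with array weights and 546 at an adjusted p of 0.1. Leaving out arrays in turn gave 0 to 12, with 12 without SED 3, 2 without SED 1 and 1 without EX 2, and leaving out SED 1 and SED 3 gave 3. Without SED 1 the count was 2, and it was 0 with no filter, the offset of 32, a single activity group, the replicate block or a minimum of 1.2-fold, 1 with averaged probe sets, 4 with median centring, 5 with quantile normalization or array weights, 6 with cyclic loess and 90 at an adjusted p of 0.1. Leaving out a further array gave 0 to 13, with 13 without SED 2. EX against PA gave 1 with array weights.

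Non-overlapping genes numbered 271, and 128 with the stricter filter (97 higher, 31 lower), which tests fewer genes. With fewer SED arrays to clear there were 381 to 621 without 1 SED array, 1021 without SED 1 and SED 3, and 739 without SED 1 and SED 4. Among 1865 values of the 70 named genes under 27 settings, 2 changed sign: Mgll with averaged probe sets, at 0.0021, where probe sets of opposite direction are combined, and Acta1 without SED 1 and SED 3, at -0.20, of which the cause was not tested. A further 95 moved by over 1.5 times. The replicate numbers did not pair the arrays: same-numbered arrays of 2 groups had deviations correlated from -0.21 to 0.13, above 0.1 in 4 of 12 pairs, and 2 of 12 arrays correlated best with their own number. The alternatives on arrays left out with SED 4, on non-overlapping genes and on lists without SED 3 were chosen after seeing the data. Dim genes, near the filter at 4.94, have the least signal over background behind their differences.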
